A study of Mus musculus with 8 samples.

Results

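The miR-181 family was followed through mouse miRNA profiles made to study PERK, a sensor kinase of the unfolded protein response, and its downstream transcription factor ATF4 in muscle differentiation. The members were taken by name from the tables of mature miRNAs: mmu-miR-181a-5p, mmu-miR-181b-5p, mmu-miR-181c-5p and mmu-miR-181d-5p, which are 4 of the 1978 miRNAs listed. All 4 were listed in every library and passed the filter on low values in every comparison. There were 8 libraries with 1 library per condition, so every difference below is between single libraries and has no replicate check. C2C12 cells, a mouse line of skeletal myoblasts, gave 6 of them. These were cells carrying a negative control hairpin RNA (shNC) or a hairpin against Perk (shPerk), each at day 0 and at day 3. Day 0 was before differentiation, and day 3 came after 3 days in differentiation medium. The remaining C2C12 libraries were of cells in growth medium, carrying an empty vector or the ATF4 coding sequence. The other 2 libraries were of P19 cells, a mouse embryonal carcinoma line, with shNC or shPerk. The hairpins were delivered to C2C12 cells by lentivirus, in stable lines selected with puromycin, and ATF4 was driven by a constitutive EF1α promoter. Whether a line was a pool or a clone, and whether the P19 cells had been induced to differentiate, was not given in the sources used here. No mRNA was measured in these libraries, so the knockdown of Perk and the overexpression of Atf4 could not be checked in them.

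A miRNA is cut from the stem of a hairpin precursor, whose arms give a 5p and a 3p product. One of these is loaded into an Argonaute protein, and its seed, the bases next to its 5′ end, pairs with target mRNAs and represses them. The miR-181 family is known for roles in lymphocyte development, and in muscle for a rise as myoblasts differentiate and for repression of the homeobox gene Hoxa11, a repressor of MyoD. In mouse the family is made from 6 genes in 3 pairs. miR-181a-5p and miR-181b-5p each come from 2 gene copies with the same mature 5p sequence. Only the 3p arms tell which copy was expressed.

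The mature sequences are shown because the members differ outside the seed only, and because the closeness of some of them bears on how reads could be assigned. They are from RefSeq (GRCm38.p6), where all 10 names of the 5p and 3p arms were matched, and are written 5′ to 3′ with the seed (bases 2 to 8) in capitals.
mmu-miR-181a-5p: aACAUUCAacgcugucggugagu
mmu-miR-181b-5p: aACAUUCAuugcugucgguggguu
mmu-miR-181c-5p: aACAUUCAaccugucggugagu
mmu-miR-181d-5p: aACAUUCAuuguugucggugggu
The 4 members shared 1 seed, which no other of the 1679 mature names in the RefSeq table carried. miR-181a-5p and miR-181c-5p were separated by 1 edit (a base changed, added or removed), miR-181b-5p and miR-181d-5p by 2 edits, and every other pair by 4 or 5.

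The gene pairs lie on 3 chromosomes of GRCm38. Mir181a-1 (chr1:137966455-137966541, plus strand) and Mir181b-1 (chr1:137966639-137966718, plus strand) are 97 bases apart, in an exon of the long noncoding RNA A430106G13Rik and an intron of Gm4258, both on the same strand. Mir181a-2 (chr2:38852735-38852810, plus strand) and Mir181b-2 (chr2:38853830-38853918, plus strand) are 1019 bases apart and lie antisense to an intron of Nr6a1, an orphan nuclear receptor gene. Mir181c (chr8:84178873-84178961, minus strand) and Mir181d (chr8:84178716-84178787, minus strand) are 85 bases apart in an intron of Nanos3 on the same strand. The 3p arms of the a genes are printed next, with the bases that distinguish the copies in capitals.
mmu-miR-181a-1-3p: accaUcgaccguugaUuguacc
mmu-miR-181a-2-3p: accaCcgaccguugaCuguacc
These 2 arms were 2 edits apart, and mmu-miR-181c-3p was also 2 edits from mmu-miR-181a-1-3p. How the authors assigned a read that matched more than 1 of these names is not given in the sources used here.

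The 4 hairpin libraries of C2C12 cells held between 8800977 and 11993448 reads counted on miRNAs. The ATF4 and P19 pairs held RPM (reads per 1000000 miRNA reads), of which 1 RPM was worth about 10.6 reads (vector), 12.2 (ATF4), 7.92 (P19 shNC) and 4.46 (P19 shPerk), judged from the steps between low values. Between 91.5% and 95.4% of those values were whole multiples of a step within rounding, so these depths are estimates and no reads were taken from them. The sum of 4 muscle miRNAs (miR-1a-3p, miR-133a-3p, miR-133b-3p and miR-206-3p) lay between 3839 and 88480 CPM (counts per 1000000 counted reads) in the C2C12 hairpin libraries and between 34.5 and 96.9 RPM in P19 cells, where miR-206-3p was not listed. The sum of 11 miRNAs of embryonal carcinoma and embryonic stem cells lay between 0 and 0.618 CPM in the C2C12 hairpin libraries and between 214951 and 455376 RPM in P19 cells. In bulk RNA, fewer cells making a miRNA and less of it per cell cannot be told apart.

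The family was more abundant in PERK knockdown cells than in control cells at both days, and more abundant at day 3 than at day 0 in both lines. The summed members took 1817 CPM in shNC cells and 4149 CPM in shPerk cells at day 0, and 3165 CPM and 6566 CPM at day 3. miR-181a-5p was at 651 CPM (95% Clopper-Pearson interval 636 to 666, 7373 reads) in shNC and 1837 CPM (16171 reads) in shPerk cells at day 0, and at 1483 CPM (17784 reads) and 4306 CPM (40599 reads) at day 3. These intervals cover counting error only, with no spread between replicates. Reads copied by PCR are not independent molecules, so the intervals may be too narrow even for counting error. miR-181a-5p ranked 94 of 1978 miRNAs in the shNC library of day 0 and 32 in the shPerk library of day 3.

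miR-181b-5p had 7947 reads in shNC and 12489 in shPerk cells at day 0, and 13322 and 13672 at day 3. miR-181d-5p had 5077 and 7498 reads at day 0, and 6554 and 7272 at day 3. miR-181c-5p had 170 and 361 reads at day 0, and 304 and 365 at day 3. Thus miR-181c-5p was the least abundant member in all 4 libraries. In the shNC library of day 0 the order was miR-181b-5p, miR-181a-5p, miR-181d-5p and miR-181c-5p, with no overlap of the counting intervals, and in the other 3 hairpin libraries miR-181a-5p stood first.

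In the remaining libraries the RPM tables were scaled separately, so levels are set side by side without a test. miR-181a-5p was at 798.77 RPM in vector and 1292.13 RPM in ATF4 cells, and at 1399.18 RPM in P19 shNC and 1113.78 RPM in P19 shPerk cells. miR-181b-5p was at 941.09 and 1609.38 RPM in the ATF4 pair, and at 1425.21 and 641.71 RPM in the P19 pair. miR-181d-5p was at 707.29 and 504.73 RPM, and at 649.06 and 365.95 RPM. miR-181c-5p, at 24.57 and 13.73 RPM and at 23.88 and 32.53 RPM, was again the least abundant, and it alone was higher by RPM in the P19 shPerk than in the P19 shNC library.

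**Figure D1:**
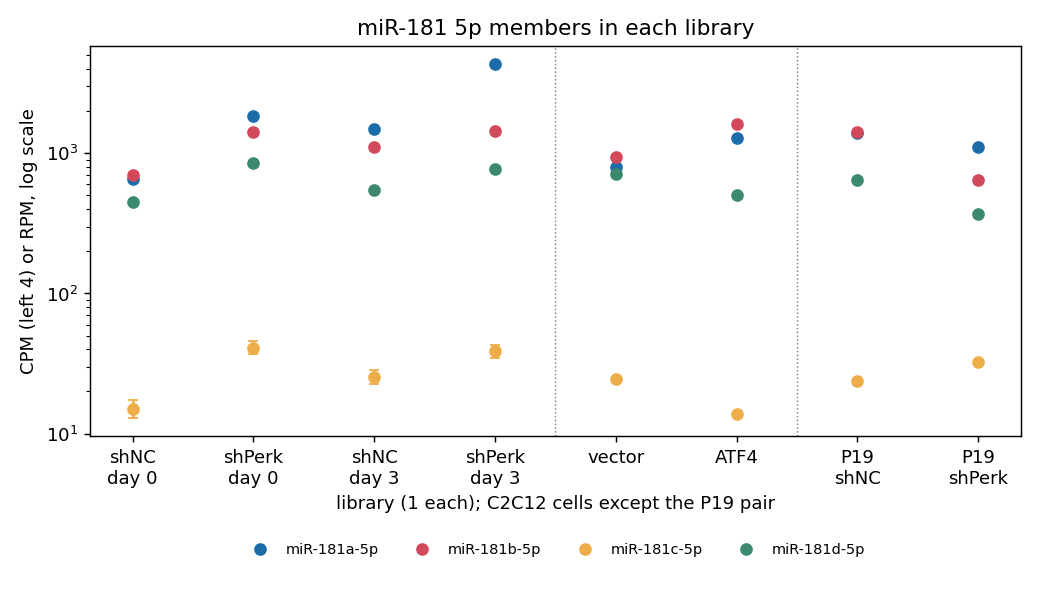
Level of each miR-181 member in each library, on a log axis, in CPM for the 4 C2C12 hairpin libraries and in RPM for the others, with 1 library per point and bars for the 95% counting interval where reads were deposited (smaller than the points except for miR-181c-5p). miR-181a-5p stands at 651 CPM in the shNC library of day 0 and at 4306 CPM in the shPerk library of day 3, and miR-181c-5p lies far below the others throughout.

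To compare conditions, library sizes were scaled with TMM factors and a miRNA was counted as past the fold limit when its log2 fold change was beyond 1. As shNC cells differentiated, 3 of the 4 members passed the limit, all upward, where 29.0% of the 593 miRNAs kept passed it in either direction. The log2 fold change of day 3 against day 0 was 1.54 for miR-181a-5p (counting interval 1.51 to 1.58), 1.02 for miR-181b-5p, 1.11 for miR-181c-5p and 0.64 for miR-181d-5p. The summed family had a log2 fold change of 1.16 (1.13 to 1.18), a 2.23-fold difference, against a median of 0.05 over all kept miRNAs. The muscle-specific miR-206-3p differed by 2.23 on the log2 scale and miR-1a-3p by 6.66. The number of members past the limit depended on the scaling: with total counts 1 of the 4 members passed, miR-181a-5p at 1.19. With that scaling 191 of the 593 miRNAs kept passed in either direction.

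At day 0, PERK knockdown went with higher levels of every member. All 4 members passed the limit, where 36.5% of the 602 miRNAs kept passed it in either direction. The log2 fold change of shPerk against shNC was 1.65 for miR-181a-5p (1.62 to 1.69), 1.17 for miR-181b-5p (1.13 to 1.21), 1.61 for miR-181c-5p (1.34 to 1.88) and 1.08 for miR-181d-5p (1.03 to 1.14). The median over the members was 1.39, against -0.03 over all kept miRNAs. In the same comparison miR-206-3p was lower by a log2 fold change of -2.17, miR-133a-3p by -3.02 and miR-133b-3p by -3.29. miR-1a-3p was lower by -0.72, which is within the limit. With upper-quartile scaling 2 of the 4 members passed, where 230 of the 602 miRNAs kept did in either direction.

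At day 3 the higher level in PERK knockdown cells was largest for miR-181a-5p. It was 3.49-fold higher, a log2 fold change of 1.80 (1.78 to 1.83), and was the only one of the 4 members past the limit, where 45.0% of the 575 miRNAs kept passed it in either direction. miR-181b-5p was at 0.65 (0.62 to 0.68), miR-181c-5p at 0.88 (0.65 to 1.10) and miR-181d-5p at 0.76 (0.71 to 0.81). The family sum was at 1.32 (1.30 to 1.34), against a median of -0.05 over all kept miRNAs. At day 3 miR-1a-3p was lower by a log2 fold change of -2.14, miR-133a-3p by -3.82 and miR-206-3p by -1.42, so the family and the muscle miRNAs stood on opposite sides of 0 at both days of the knockdown comparison. The part of the lower muscle miRNAs in these results was not tested.

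When shPerk cells were followed from day 0 to day 3, 1 of the 4 members, miR-181a-5p, passed the limit at 1.68 (1.65 to 1.70), where 33.9% of the 573 miRNAs kept passed it in either direction. miR-181b-5p was at 0.48, miR-181c-5p at 0.36 and miR-181d-5p at 0.30. With total counts, miR-181c-5p and miR-181d-5p changed sign to -0.08 and -0.14. The difference between the log2 changes of the shPerk and shNC lines was 0.13 (0.08 to 0.18) for miR-181a-5p, -0.54 (-0.60 to -0.49) for miR-181b-5p, -0.75 (-1.09 to -0.41) for miR-181c-5p and -0.34 (-0.41 to -0.27) for miR-181d-5p. For the family sum it was -0.05 (-0.08 to -0.02). The summed family thus differed by nearly the same fold between days in both lines, 2.23 in shNC and 2.16 in shPerk cells, while its members diverged. These 4 comparisons share libraries with each other and are not independent.

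Both scaling and an assumed spread limit these counts. Scaling to total counts in place of TMM moved the median over all kept miRNAs by -0.27 (knockdown at day 3), -0.16 (knockdown at day 0), -0.36 (differentiation of shNC cells), -0.45 (differentiation of shPerk cells), -0.06 (ATF4) and -0.61 (P19), and every member moved with it. The exact test of edgeR was also run with assumed coefficients of variation of 0.2 and 0.4 between replicates. With 1 library per condition neither value could be checked. At 0.4 no member reached a Benjamini-Hochberg adjusted p-value below 0.05 in the 4 comparisons with counts. Most of all the miRNAs past the fold limit did not reach it either. At 0.2 more members and more of all miRNAs passed in each of these comparisons.

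**Figure D2:**
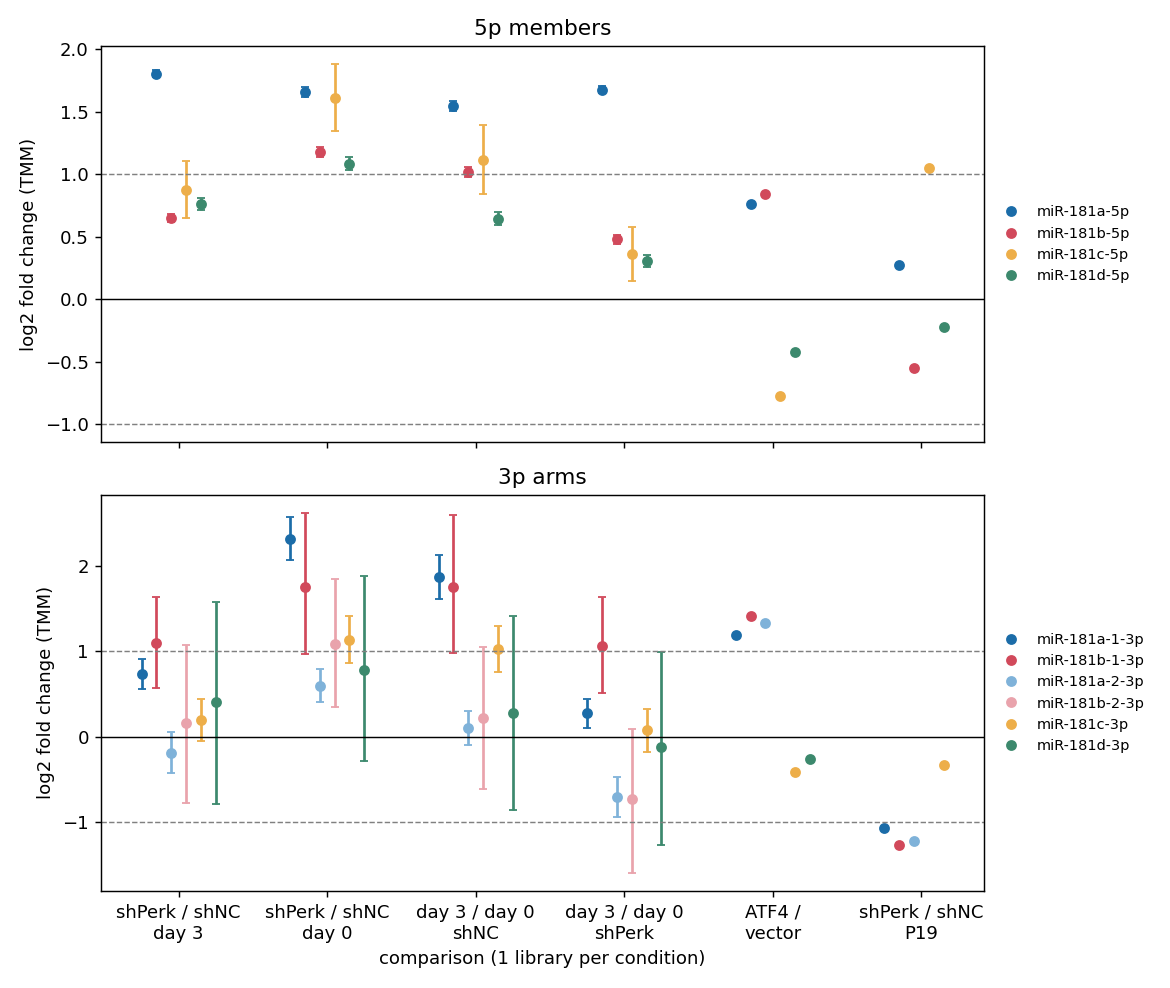
Log2 fold change (TMM) of the 4 members (top) and of the 6 3p arms (bottom) in the 6 comparisons, with 1 library per condition, bars for the 95% counting interval for the libraries with counts, and dashed lines at the fold limit of 1 in either direction (arms listed at 0 or not listed are not drawn). miR-181a-5p lies above the limit in the 4 hairpin comparisons of C2C12 cells, and in ATF4 cells miR-181a-5p and miR-181b-5p lie above 0 with miR-181c-5p and miR-181d-5p below it.

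Shares within the family do not depend on the scaling between libraries. miR-181a-5p made up 35.8% of the family's reads (35.2 to 36.5) in shNC and 44.3% (43.8 to 44.8) in shPerk cells at day 0, and 46.8% (46.3 to 47.3) and 65.6% (65.2 to 66.0) at day 3. Over the same libraries, in the same order, miR-181b-5p made up 38.6%, 34.2%, 35.1% and 22.1%. miR-181d-5p made up 24.7%, 20.5%, 17.3% and 11.7%. Both knockdown and differentiation therefore went with a larger share of miR-181a-5p, and the share was largest where they were combined. The ratio of miR-181a-5p to miR-181b-5p was 0.928 (0.899 to 0.958) in shNC and 1.29 (1.26 to 1.33) in shPerk cells at day 0, and 1.33 (1.31 to 1.37) and 2.97 (2.91 to 3.03) at day 3. The 5p reads do not tell from which of the loci this difference came.

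**Figure D3:**
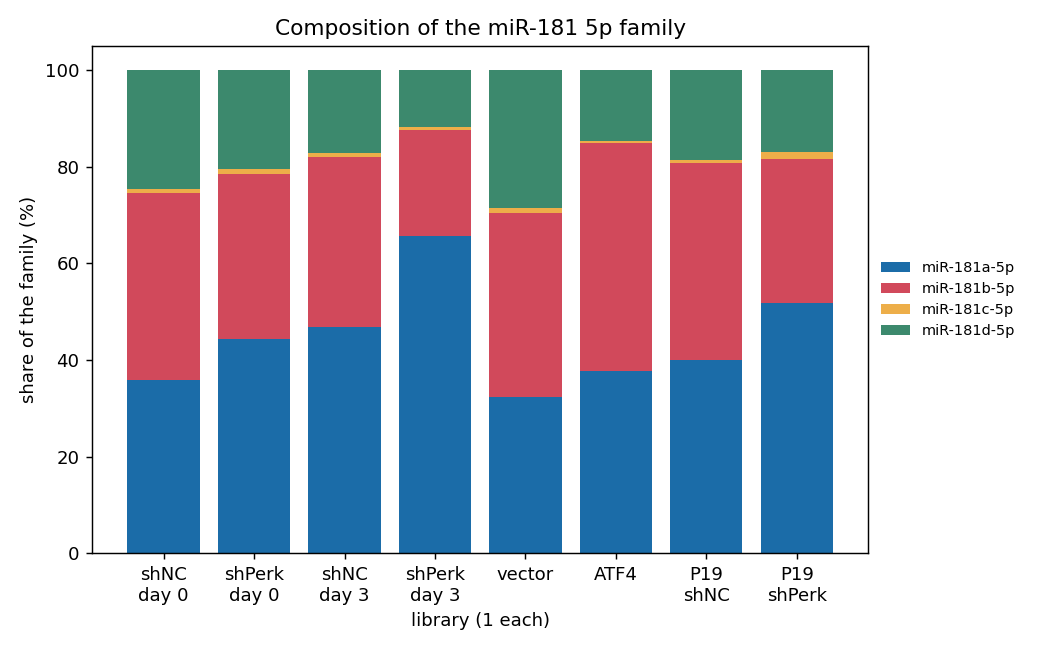
Share of the 4 members in the summed level of the family, in percent, for each of the 8 libraries. miR-181a-5p holds 35.8% in the shNC library of day 0 and 65.6% in the shPerk library of day 3, and the share of miR-181d-5p is 28.6% in vector and 14.8% in ATF4 cells.

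The 3p arms separate the gene copies, and those of miR-181a, miR-181b and miR-181d were far less abundant than their 5p partners. mmu-miR-181a-1-3p had 170 reads in shNC and 589 in shPerk cells at day 0, and 513 and 560 at day 3. mmu-miR-181a-2-3p had 446 and 470 reads at day 0, and 395 and 227 at day 3. By CPM the arm of the chromosome 1 copy was at 15.0 in shNC and 66.9 in shPerk cells at day 0, and at 42.8 and 59.4 at day 3. It was thus lowest in the shNC library of day 0, and the shNC library of day 3 was also below both shPerk libraries. The arm of the chromosome 2 copy was lowest in the shPerk library of day 3. The ratio of the first arm to the second was 0.381 (0.318 to 0.456) in shNC and 1.25 (1.11 to 1.42) in shPerk cells at day 0, and 1.30 (1.14 to 1.48) and 2.47 (2.11 to 2.89) at day 3.

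The b arms were scarce. mmu-miR-181b-1-3p had 19, 45, 53 and 74 reads in shNC and shPerk cells at day 0 and in shNC and shPerk cells at day 3, and mmu-miR-181b-2-3p had 27, 40, 26 and 19. Summed by locus, the chromosome 1 pair gave 21.9% of all 3p reads of the family (19.2 to 24.8) in shNC and 43.9% (41.3 to 46.5) in shPerk cells at day 0, and 43.1% and 56.3% at day 3. The chromosome 2 pair gave 54.9%, 35.3%, 32.0% and 21.8%. The pair on chromosome 8 gave 23.2%, 20.8%, 24.9% and 21.9%, a narrow range, so the shares moved between the loci that both encode miR-181a and miR-181b.

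Among the 6 arms, 4 passed the fold limit upward in the knockdown at day 0 (36.5% of all kept miRNAs passed in either direction) and 1 at day 3 (45.0%). With differentiation, 3 of the 6 arms passed upward in shNC cells (29.0%) and 1 in shPerk cells (33.9%). In the day 3 knockdown and in shPerk cells the share of arms was thus below that of all miRNAs. With total counts, mmu-miR-181b-2-3p (0.93) and mmu-miR-181c-3p (0.98) fell within the limit in the knockdown at day 0. So did mmu-miR-181b-1-3p at day 3 (0.83) and in shPerk cells (0.62), and mmu-miR-181c-3p in shNC cells (0.67). The day 0 knockdown intervals of mmu-miR-181b-2-3p (0.35 to 1.85) and mmu-miR-181b-1-3p (0.96 to 2.62) reached below the limit. mmu-miR-181a-1-3p differed by a log2 fold change of 2.31 (2.07 to 2.57) in the knockdown at day 0 and by 0.74 (0.56 to 0.91) at day 3. mmu-miR-181a-2-3p was at 0.60 (0.41 to 0.79) and -0.19 (-0.43 to 0.05). mmu-miR-181c-3p, with 185 and 283 reads at day 0 and 312 and 234 at day 3, was at 1.13 (0.86 to 1.41) and 0.20 (-0.05 to 0.45), the latter negative with total counts or upper-quartile scaling. mmu-miR-181d-3p had between 13 and 18 reads in the 4 libraries, too few to resolve a difference at this depth. With differentiation, mmu-miR-181a-1-3p was at 1.87 (1.62 to 2.13) in shNC cells and 0.27 (0.10 to 0.44) in shPerk cells, the latter negative with total counts or upper-quartile scaling, and the difference between these changes was -1.59 (-1.89 to -1.29).

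At day 3 the difference between PERK knockdown and control cells was larger for miR-181a-5p than for its summed 3p arms. The ratio of miR-181a-5p to its summed 3p arms was 11.97 (11.0 to 13.0) in shNC and 15.3 (14.3 to 16.3) in shPerk cells at day 0, and 19.6 (18.3 to 21.0) and 51.6 (48.1 to 55.4) at day 3. For miR-181c the ratio was 0.919 (0.742 to 1.14) and 1.28 (1.09 to 1.50) at day 0, and 0.974 (0.829 to 1.14) and 1.56 (1.32 to 1.85) at day 3. miR-181c was unusual in the family in that its arms were read about equally. The log2 change of the ratio with knockdown at day 3 was 1.40 (1.26 to 1.54) for miR-181a and 0.68 (0.35 to 1.01) for miR-181c. For miR-181b it was -0.20 (-0.63 to 0.24), with ratios between 147 and 173 in the 4 libraries, and for miR-181d it was 0.36 (-0.72 to 1.43), so at this depth no change was detectable for these members.

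**Figure D4:**
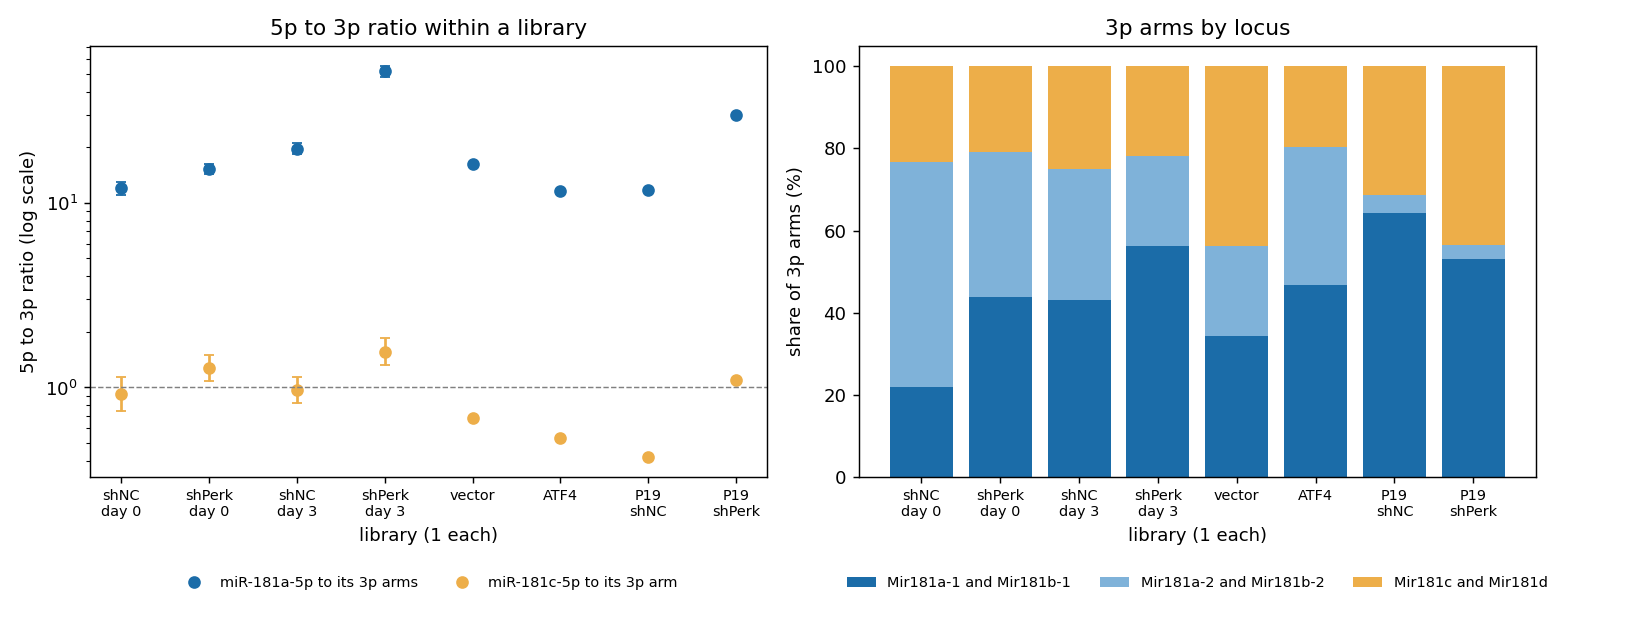
Left, ratio of 5p to 3p reads or RPM for miR-181a and miR-181c in each library, on a log axis with bars for the 95% counting interval where reads were deposited. Right, share of each gene pair in the summed 3p arms, in percent. The miR-181a ratio is 51.6 in the shPerk library of day 3 of C2C12 cells and 30.1 in the shPerk library of P19 cells, and lies between 11.6 and 19.6 in the other 6.

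Between the vector and ATF4 libraries the members of the family differed in direction. In these C2C12 cells in growth medium 0 of the 4 members passed the fold limit, where 23.5% of the 605 miRNAs listed passed it in either direction. The paper reports fusion of ATF4-overexpressing cells in that medium, and the part of differentiation in these differences was not tested. The log2 fold change of ATF4 against vector was 0.76 for miR-181a-5p and 0.84 for miR-181b-5p, and -0.78 for miR-181c-5p and -0.42 for miR-181d-5p. The members of the chromosome 8 pair were thus lower, and those of the other pairs higher, under each of the scalings tried. The sizes depended on the scaling. With upper-quartile factors miR-181a-5p was at 0.38, miR-181b-5p at 0.46, miR-181c-5p at -1.155 and miR-181d-5p at -0.80. Within the library, the ratio of miR-181a-5p and miR-181b-5p to miR-181c-5p and miR-181d-5p was 2.38 in vector and 5.60 in ATF4 cells, a log2 change of 1.24. These pairs have no counting interval, because their values are RPM and not reads.

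The 3p arms in the ATF4 pair divided in the same way. mmu-miR-181a-1-3p was at 29.49 RPM in vector and 64.44 RPM in ATF4 cells, a log2 fold change of 1.19. mmu-miR-181a-2-3p was at 19.56 and 47.18 RPM, 1.33 on that scale. mmu-miR-181b-1-3p was at 1.42 and 3.62 RPM, and mmu-miR-181b-2-3p was listed at 0 in vector and at 1.97 RPM in ATF4 cells, so no fold is given for it. Arms of both miR-181a and miR-181b genes were therefore higher in ATF4 cells, on either chromosome. mmu-miR-181c-3p was at 36.01 and 25.89 RPM (-0.41) and mmu-miR-181d-3p at 3.40 and 2.71 RPM (-0.26). The arms of both miR-181b genes and mmu-miR-181d-3p were below 10 RPM in both libraries, so their directions rest on low values. The chromosome 8 pair gave 43.8% of the 3p arms in vector and 19.6% in ATF4 cells. The ratio of miR-181a-5p to miR-181b-5p was 0.849 and 0.803, and that of miR-181a-5p to its 3p arms 16.3 and 11.6, both lower in ATF4 than in vector cells. In the same pair miR-1a-3p was at 6.42 RPM in vector and 259.4 RPM in ATF4 cells, and miR-206-3p at 2350.57 and 3320.35 RPM.

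In P19 cells the family did not move as one group with PERK knockdown. miR-181c-5p was the 1 of 4 members past the limit, at a log2 fold change of 1.05, where 35.3% of the 696 miRNAs listed passed it in either direction. miR-181a-5p was at 0.28, miR-181b-5p at -0.55 and miR-181d-5p at -0.22, and the family sum at -0.09. These directions rested on the scaling: with total counts miR-181a-5p changed sign to -0.33, miR-181c-5p was at 0.45, miR-181b-5p passed the limit downward at -1.15, miR-181d-5p was at -0.83 and the sum at -0.70. TMM gave 123 miRNAs past the limit in each direction and total counts gave 46 higher and 247 lower, so the share of higher miRNAs also depended on the choice. The 11 embryonal miRNAs summed to 214951 RPM in P19 shNC and 455376 RPM in P19 shPerk cells, and their part in the lower RPM of the family was not tested.

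The 3p arms of P19 cells were lower in the knockdown. mmu-miR-181a-1-3p was at 111.04 RPM in P19 shNC and 34.78 RPM in P19 shPerk cells, a log2 fold change of -1.07 with TMM and -1.67 with total counts. mmu-miR-181b-1-3p was at 4.93 and 1.35 RPM, mmu-miR-181a-2-3p at 7.96 and 2.24 RPM, and mmu-miR-181c-3p at 56.85 and 29.62 RPM. Of the 4 arms listed, 3 passed the limit downward and mmu-miR-181c-3p, at -0.34, did not, where 35.3% of all listed miRNAs passed in either direction and 123 of 696 downward (247 with total counts). Among the 3, mmu-miR-181b-1-3p and mmu-miR-181a-2-3p were below 10 RPM in both libraries, so their folds rest on low values. mmu-miR-181b-2-3p and mmu-miR-181d-3p were not listed in this table. The chromosome 2 pair contributed 4.40% and 3.29% of the 3p arms, less than in any C2C12 library, where its share was between 21.8% and 54.9%.

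Ratios within the P19 libraries were free of the scaling. miR-181a-5p to miR-181b-5p was 0.982 in P19 shNC and 1.74 in P19 shPerk cells, a log2 change of 0.82, against 1.15 (1.11 to 1.20) with knockdown in C2C12 cells at day 3 and 0.48 (0.42 to 0.54) at day 0. miR-181a-5p to its 3p arms was 11.8 and 30.1, a log2 change of 1.36, against 1.40 and 0.35 in C2C12 cells at day 3 and day 0. For miR-181c the ratio was 0.420 and 1.10, a log2 change of 1.39. In all 3 knockdown pairs, then, the shPerk library had more miR-181a-5p for each miR-181b-5p. It also had more of the 5p arm for each 3p arm of miR-181a and miR-181c. The day 0 and day 3 pairs of C2C12 cells were of the same shNC and shPerk lines, so they are not separate knockdowns.

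The miRNAs most like each member were sought among 266 miRNAs whose mean reached 10 CPM or RPM in every group of libraries, by the root mean square difference of log2 levels over the 8 libraries, each centred on its own group of libraries. For miR-181a-5p they were miR-132-3p (0.25), miR-132-5p (0.28) and miR-24-1-5p (0.29), where the median of all candidates was 0.90. For miR-181b-5p they were miR-23b-3p (0.098), miR-466f-3p (0.19) and miR-27b-3p (0.20). For miR-181c-5p they were miR-27a-3p (0.21), miR-320-3p (0.31) and miR-674-3p (0.34). For miR-181d-5p the nearest was miR-181c-3p (0.15), from the same pair of genes, followed by miR-320-3p and miR-24-3p (0.22 each). No member had another of the 4 members among its 3 nearest, the closest being miR-181d-5p, which ranked 7 for miR-181c-5p. For miR-181a-5p and for miR-181b-5p, the best placed other member ranked 21.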

How the data were processed

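The 4 members and the lists were chosen with earlier results of these data known. The authors ligated linkers, amplified by PCR, selected by size and annotated reads with bowtie, whose version, like the rule for reads matching several miRNAs, is not given in the sources used here. The submitters' processing notes name mm10 and GRCm38. The authors deposited raw counts per mature miRNA for the C2C12 hairpin libraries and RPM for the ATF4 and P19 pairs. Deposited fold changes, p-values and q-values are the authors' comparisons and were not used.

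A miRNA was kept for a comparison when either library had at least 1 CPM or RPM. Log2 fold changes used edgeR TMM factors from all miRNAs, with a prior count of 0.125 for counts, and with RPM of 0 set to 1. The limit was a log2 fold change beyond 1, and no test between conditions stands behind the values given. Intervals are 95% Clopper-Pearson for levels, shares, ratios and fold changes. Those for changes of a ratio and for differences between fold changes are normal approximations from the reads. In 1 simulation of the knockdown at day 3 (557 miRNAs), 100% of 200 miRNAs changed by a log2 fold of 2 passed, with 15 false calls among 357 unchanged. The simulated counts varied by counting error only and were scaled to total counts. The simulation therefore checks the calculation and cannot show how often replicates would pass the limit. The miRNAs named are the members, their 3p arms, the 3 nearest in pattern to each member, and 4 muscle miRNAs. Alternatives were other scalings, filters, a prior count of 2 and edgeR's exact test at assumed coefficients of 0.2 and 0.4. The exact test was judged at a Benjamini-Hochberg adjusted p-value below 0.05. Tools were R 4.3.3, edgeR 4.0.16, DESeq2 1.42.0, Python 3.11.15, scipy 1.17.1, numpy 2.4.6, matplotlib 3.10.9 and pandas 2.3.3.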

Additional observations from a re-analysis of the deposited data

Results flagged for a closer look

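For the family sum and 8 miRNAs, the log2 fold change had opposite signs in 2 comparisons of the same contrast. Each rests on 1 library per condition, and the difference was not tested. Between PERK knockdown in C2C12 cells at day 3 and in P19 cells, the log2 fold changes differed by 1.41 for the family sum (1.32 and -0.09), 1.20 for miR-181b-5p (0.65 and -0.55), 0.98 for miR-181d-5p (0.76 and -0.22), 1.81 for miR-181a-1-3p (0.74 and -1.07), 2.36 for miR-181b-1-3p (1.09 and -1.26) and 0.53 for miR-181c-3p (0.20 and -0.34). With total counts or upper-quartile scaling miR-181c-3p was negative in both lines. The family sum in P19 cells lay near 0, at -0.09 with TMM and -0.047 with median of ratios. The P19 values have no interval.

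Between knockdown at day 3 and at day 0, miR-181a-2-3p differed by -0.78 (-0.19 and 0.60). Its counting interval at day 3 (-0.43 to 0.05) held 0. Between differentiation of shPerk and of shNC cells, miR-181a-2-3p differed by -0.80 (-0.70 and 0.10), miR-181b-2-3p by -0.94 (-0.72 and 0.22) and miR-181d-3p by -0.39 (-0.12 and 0.27). With total counts all 3 arms were negative in shNC cells too, and the counting intervals of the differences for miR-181b-2-3p (-2.05 to 0.16) and miR-181d-3p (-1.85 to 1.06) held 0.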

How the results depend on the processing

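No paired analysis was possible because each condition had 1 library, and for the same reason no library could be left out. The log2 change of the family sum kept its sign in all 6 comparisons under every scaling tried. With total counts it was 1.05 (knockdown at day 3), 1.19 (knockdown at day 0), 0.80 (differentiation of shNC cells), 0.66 (of shPerk cells), 0.47 (ATF4) and -0.70 (P19). With upper-quartile factors it was 1.09, 1.12, 1.07, 0.83, 0.15 and -0.23 in that order. With DESeq2's median of ratios it was 1.11 and 1.02 in the differentiation of shNC and shPerk cells, 0.52 with ATF4 and -0.047 in P19 cells. With TMM factors from filtered miRNAs it was 1.39 and 1.33 in the knockdown at day 3 and day 0, and 1.07 and 1.02 in the differentiation of shNC and shPerk cells. The difference between the responses to differentiation was -0.14 with total counts, -0.090 with median of ratios and -0.24 with upper-quartile factors.

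The count of members past the limit was 1 with total counts in the differentiation of shNC cells (191 of all 593 miRNAs kept). With upper-quartile factors it was 2 in the knockdown at day 0 (230 of 602), 1 with ATF4 (177 of 605) and 0 in P19 cells (238 of 696). The exact test, judged by its adjusted p-value, passed 1 member in the differentiation of shNC cells at a coefficient of 0.2. At 0.4 it passed 0 in each of the 4 comparisons with counts. Among all miRNAs, the count past the limit was 259, 220, 172 and 194 in the knockdown at day 3 and day 0 and the differentiation of shNC and shPerk cells. It was 627, 588, 556 and 511 without a filter, and 163, 130, 91 and 105 with a minimum of 10 CPM. The exact test at 0.4, judged by its adjusted p-value, passed 46, 56, 7 and 1. At 0.2 the exact test passed 96 and 104 in the differentiation of shNC and shPerk cells. With ATF4 the count past the fold limit was 142, and 83 with a minimum of 10 RPM. The split of higher and lower miRNAs also moved: 122 and 137 became 93 and 166 with total counts in the knockdown at day 3, 100 and 120 became 78 and 143 at day 0, 91 and 81 became 51 and 140 in shNC cells, and 106 and 88 became 58 and 161 in shPerk cells. For single members and arms in the comparisons with counts, 103 alternative values stayed within the counting interval of the value given and 57 did not. The cause of these moves was not tested. The RPM tables carry no reads, so their differences have no interval.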
